A study of Homo sapiens with 3 samples.

Results

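The genes described here are 10 transcription regulators of the melanocyte lineage: MITF, SOX10, PAX3, SOX9, SOX2, POU3F2, TFAP2A, ZEB1, ZEB2 and PPARGC1A. They were chosen by gene symbol, and all 10 were found among the 24424 genes of the deposited count table. Each was read in 3 libraries of messenger RNA from A375SM, an established human metastatic melanoma line derived from A375. The shPRAME cells carried a lentiviral hairpin against PRAME, a melanoma antigen and subunit of ubiquitin ligases, the shBAP1 cells one against the deubiquitinase BAP1, and shEmpty was the control. The series' design text gives the control a non-targeting hairpin, while its sample labels name it shEmpty with the genotype WT. All 3 populations had received a lentiviral vector with green fluorescent protein and were selected as positive for it. The labels name 1 hairpin vector per target, so effects of lowering the target and other effects of the hairpin cannot be told apart.

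MITF is a basic helix-loop-helix leucine zipper factor that binds E-box sequences and activates the genes of melanin synthesis together with genes of survival and division. SOX10 and PAX3 switch on its melanocyte-specific promoter, which also answers to cyclic AMP through CREB and to Wnt signalling through LEF and TCF factors. In melanoma, high MITF goes with a differentiated and pigmented state. Low MITF goes with an invasive or dedifferentiated state in which ZEB1 is often high and ZEB2 low. PPARGC1A, a coactivator of mitochondrial biogenesis, is itself a known MITF target in part of melanomas.

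With a single library for each condition, the differences could not be tested against replicates, and none has a p-value. Library totals ran from 14181829 (shBAP1) to 19430130 counts (shEmpty), and the limit for a gene without any count, set at 3 counts, was 0.160 to 0.202 CPM. CPM, the usual count relative to library size, was taken here after TMM scaling, which corrects library size for composition. All intervals are exact 95% intervals, unless said otherwise, and cover counting error only. A gene was measured where its mean count over the libraries was at least 50, which 11956 genes reached. A gene could reach this mean through a single high library. It was called higher or lower where the ratio of scaled counts was at least 2-fold and its interval left out no change. The targets were lowest in their own libraries, PRAME at 32.9% of shEmpty in shPRAME and BAP1 at 35.2% in shBAP1. Of the melanocyte and melanoma markers, SOX10, MITF, S100B, S100A1, MCAM, CSPG4 and PRAME each had at least 10 counts in every library. They hold 2 of the regulators and a knockdown target, and CSPG4 had the most counts of them in shPRAME, so their summed level (2874 CPM in shEmpty, 2153 in shBAP1 and 4662 in shPRAME) is no measure of differentiation. The pigment markers PMEL and MLANA were scarce, with 6 and 3 counts in shEmpty, 34 and 19 in shBAP1 and 8 and 7 in shPRAME, and TYR, TYRP1 and DCT, given below, were also highest in shBAP1. Keratinocyte markers summed to 27.2 to 53.4 CPM, nearly all KRT10, and immune markers to 2.13 to 3.01 CPM. Fibroblast markers summed to 34.6 CPM in shEmpty, 42.1 in shBAP1 and 50.9 in shPRAME, with 3, 4 and 5 of the 5 genes at 10 counts or more in that order. Endothelial markers summed to 0.480 and 0.943 CPM in shEmpty and shBAP1 and to 19.6 in shPRAME, nearly all TIE1. Schwann and glial markers summed to 231 CPM in shEmpty, 451 in shBAP1 and 307 in shPRAME. KRT1, CDH5 and CD3E had no count anywhere, and the part of other cells in the results below was not tested.

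9 of the 10 regulators were measured. SOX2, with a mean count of 49.7, fell just outside the minimum and takes no part in the counts of calls. In shPRAME against shEmpty 3 of the 9 were lower (MITF, TFAP2A and PPARGC1A) and none was higher. The share called among all measured genes was 19.3% in either direction, 10.2% higher and 9.08% lower. In shBAP1 against shEmpty 3 of the 9 were higher (TFAP2A, ZEB2 and PPARGC1A) and 1 was lower (ZEB1), where 14.1% of all measured genes were called, 5.53% higher and 8.56% lower. With scaling by total count the calls over all genes in that comparison changed from 39.2% to 49.8% higher, and the median log2 ratio of all genes moved by 0.12. In shPRAME against shBAP1 4 of the 9 were lower (MITF, TFAP2A, ZEB2 and PPARGC1A) and 1 was higher (ZEB1), against 25.1% of all measured genes called, 14.2% higher and 10.9% lower. The first and second of these comparisons share the shEmpty library. Each of the 3 other scalings tried shifts the log2 ratios of a comparison by the same amount. That amount was smaller than the log2 ratio of any regulator, so no sign changed.

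Of the 9 measured regulators 33.3% were called in shPRAME against shEmpty, 44.4% in shBAP1 against shEmpty and 55.6% in shPRAME against shBAP1. The median log2 ratios of the 9 were -0.51, 0.18 and -0.68 in that order, beside -0.06, -0.03 and -0.06 for all measured genes. In bulk RNA a lower level in every cell and fewer cells that express a gene cannot be told apart.

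**Figure D1:**
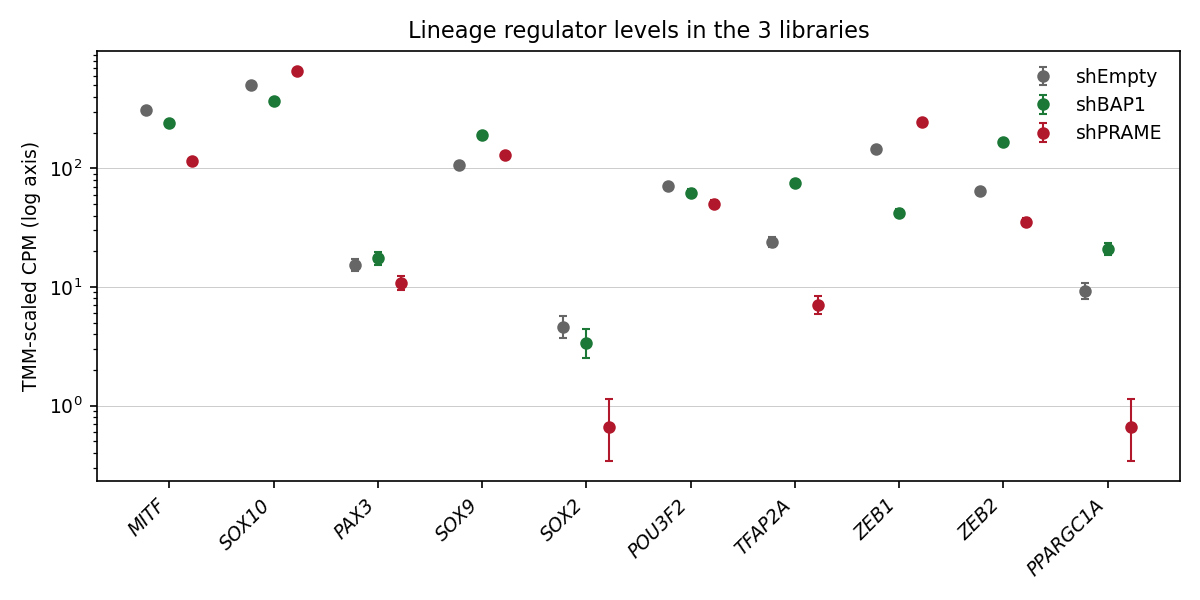
TMM-scaled CPM (log axis) of the 10 regulators in shEmpty (grey), shBAP1 (green) and shPRAME (red), with bars for exact 95% Poisson intervals of 1 library each. TFAP2A, ZEB2 and PPARGC1A were highest in shBAP1 and lowest in shPRAME, and ZEB1 had the opposite order.

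**Figure D2:**
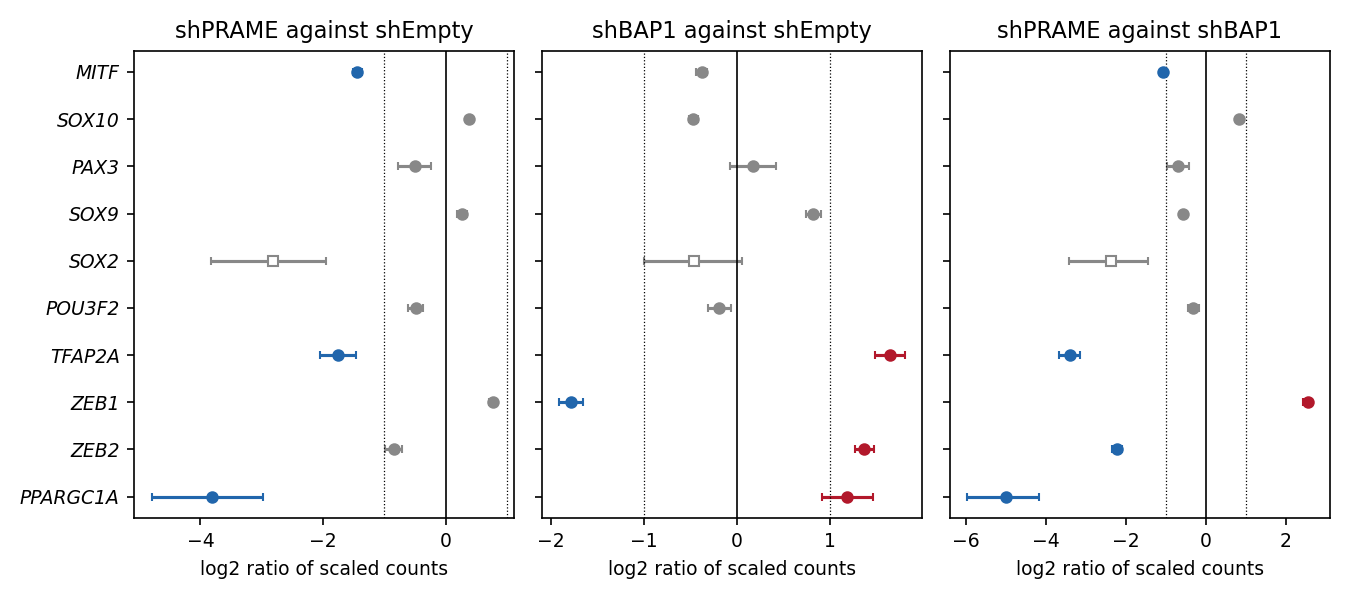
log2 ratios of scaled counts in the 3 comparisons (panels, each with its own axis range) with exact 95% counting intervals. Red points were called higher, blue points lower and grey points neither; the open square is SOX2, which was below the count minimum, and dotted lines mark 2-fold.

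**Figure D3:**
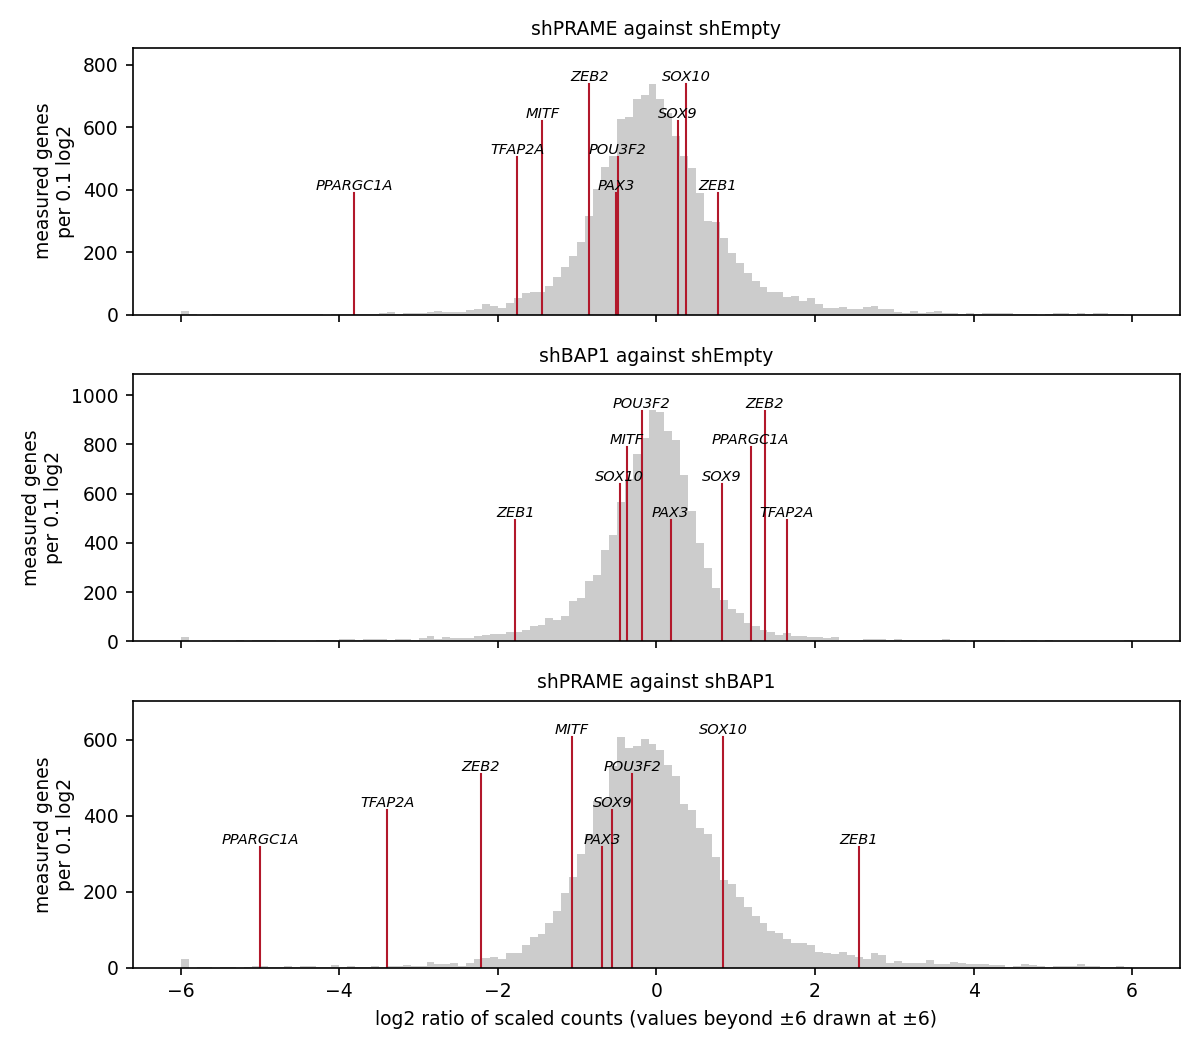
Histograms of the log2 ratios of all measured genes (grey, genes per bin of 0.1 log2) with the 9 measured regulators as red lines; line heights carry no value. PPARGC1A lies far in the lower tail in both panels with shPRAME, and ZEB1 lies in the lower tail for shBAP1 against shEmpty.

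MITF, the factor after which the group is named, stood at 309.9 CPM in shEmpty (302 to 318), 239 in shBAP1 (231 to 247) and 114 in shPRAME (109 to 119). Its 3 intervals did not overlap, and shPRAME was the low library. MITF was thus at 36.8% of shEmpty in shPRAME (35.0% to 38.7%), a log2 ratio of -1.44, with 4.24% of all measured genes below it. In shBAP1 it was at 77.0% of shEmpty (73.8% to 80.3%), within the 2-fold limit. Between the knockdowns it was 2.09-fold lower in shPRAME (1.98 to 2.21), close to that limit. The counts are per gene, so they do not separate the melanocyte isoform MITF-M from isoforms with other starts.

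The RefSeq promoter table (GRCh38.p14) held windows for 8 of the 10 regulators, with 3 starts for MITF. Shown here are the 250 bases before the start of MITF nearest its 3′ end, which as background is that of MITF-M. With it are the windows of 3 classic pigment targets whose values follow, to show the sequence that MITF is known to read. Each runs 5′ to 3′ in the direction of its gene. Capitals in MITF mark the cyclic AMP response element TGACGTCA and the TCF and LEF motif CTTTGAT, and in the other 3 the M-box core TCATGTG and the E-box CATGTG, which each M-box core contains and which also occurs alone, or their reverse complements. The windows are MITF at chr3:69936342-69936591 (plus strand), TYR at chr11:89177625-89177874 (plus), TYRP1 at chr9:12693135-12693384 (plus) and DCT at chr13:94479683-94479932 (minus).
MITF: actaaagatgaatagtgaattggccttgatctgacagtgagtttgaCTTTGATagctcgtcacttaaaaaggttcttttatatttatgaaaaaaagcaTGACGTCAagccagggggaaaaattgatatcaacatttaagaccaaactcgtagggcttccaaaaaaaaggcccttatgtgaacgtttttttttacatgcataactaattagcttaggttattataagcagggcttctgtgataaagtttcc
TYR: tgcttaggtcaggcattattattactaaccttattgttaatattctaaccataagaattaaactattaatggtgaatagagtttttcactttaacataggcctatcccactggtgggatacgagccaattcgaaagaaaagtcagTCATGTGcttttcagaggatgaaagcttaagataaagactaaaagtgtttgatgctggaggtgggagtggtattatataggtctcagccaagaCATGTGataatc
TYRP1: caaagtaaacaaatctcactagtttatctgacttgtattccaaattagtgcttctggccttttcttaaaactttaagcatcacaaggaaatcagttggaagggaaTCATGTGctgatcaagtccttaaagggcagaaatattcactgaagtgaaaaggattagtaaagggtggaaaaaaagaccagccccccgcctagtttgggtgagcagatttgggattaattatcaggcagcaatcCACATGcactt
DCT: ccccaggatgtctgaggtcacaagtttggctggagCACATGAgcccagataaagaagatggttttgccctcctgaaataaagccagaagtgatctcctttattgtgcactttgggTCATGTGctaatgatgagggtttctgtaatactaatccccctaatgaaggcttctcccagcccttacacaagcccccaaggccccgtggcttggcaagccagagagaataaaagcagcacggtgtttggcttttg

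The DCT window is the one of its 2 windows that held any of these motifs. In the MITF window TGACGTCA began 152 bases and CTTTGAT 204 bases before the start. Neither was in the windows of its other 2 starts. Searched on both strands, TGACGTCA was in 1.65% and CTTTGAT in 2.26% of all 35116 windows of this length. TCATGTG began 105 bases before the start of TYR, 145 before that of TYRP1 and 135 before this start of DCT, which held a further reverse match at 215. CATGTG alone began 12 bases before the start of TYR, and its reverse 11 bases before that of TYRP1. Of all windows 2.52% held TCATGTG and 9.42% the shorter CATGTG. These matches describe the letters and show no binding, and the hairpin libraries carry no measurement of the promoters themselves.

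TYR, TYRP1 and DCT, the enzymes of melanin synthesis that MITF is known to activate, differed far more between libraries than MITF. TYR, the rate-limiting enzyme, had 4 counts in shEmpty, 573 in shBAP1 and none in shPRAME. TYRP1 had 0, 1037 and 1 counts, and DCT 192, 1668 and 6, in the same order. shBAP1 was the high library for all 3 genes, while its MITF level was below that of shEmpty. In shBAP1 TYRP1 was at least 436-fold higher than shEmpty with the floor of 3 counts put for its count of 0 (the exact lower limit was 354-fold), TYR 181-fold (70.2 to 666) and DCT 11.0-fold (9.44 to 12.8). DCT was 31.2-fold lower than shEmpty in shPRAME (14.1 to 86.2) and 342-fold lower there than in shBAP1 (157 to 934), beside 2.09-fold for MITF in the latter comparison. Of the list of 22 MITF pigment targets, taken from textbook knowledge, 15 were measured. In shPRAME 7 of them were lower and none higher, with a median log2 ratio of -0.98 over the 14 with a ratio, against -0.06 for all measured genes. TYR is in that median with its 0 put at the floor of 3 counts, and TYRP1 is out of it because both of its counts were at or below the floor. In shBAP1 3 were higher (TYR, TYRP1 and DCT) and none lower, with a median of 0.06 against -0.03 for all measured genes. TYR and TYRP1 reached the count minimum only through shBAP1, the library where they were called higher. Of all measured genes 9.08% were lower in shPRAME and 5.53% higher in shBAP1. The melanosome trafficking gene RAB38 was at 64.6 CPM in shEmpty, 48.0 in shBAP1 and 4.92 in shPRAME, 13.1-fold lower in the last than in the first. BEST1, an ion channel gene, was 4.30-fold lower in shPRAME, and MREG, a melanosome transport gene, 3.72-fold lower.

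**Figure D4:**
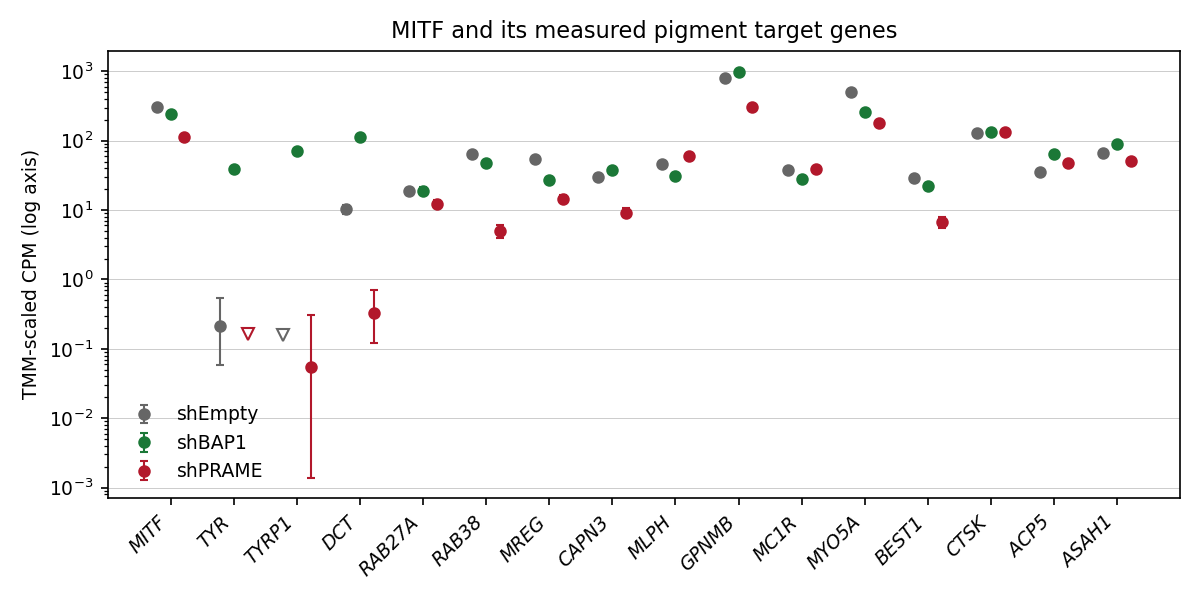
TMM-scaled CPM (log axis) of MITF and its 15 measured pigment targets in shEmpty (grey), shBAP1 (green) and shPRAME (red), with exact 95% Poisson intervals. Open triangles mark a count of 0, drawn at the floor of 3 counts. TYR, TYRP1 and DCT are high in shBAP1 alone, while RAB38, BEST1 and CAPN3 are low in shPRAME.

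MITF targets of growth and survival gave no common direction. Of 15 genes 14 were measured, 2 higher and 2 lower in shPRAME (median log2 ratio -0.16) and 2 lower in shBAP1 (median -0.25). Of all measured genes 19.3% were called in shPRAME and 14.1% in shBAP1, with medians of -0.06 and -0.03. The count in shBAP1 is near that share. BCL2, the antiapoptotic gene, was at 15.3 CPM in shEmpty, 10.7 in shBAP1 and 0.547 in shPRAME, 27.9-fold lower in the last (15.0 to 58.8). The repair gene BRCA1 was 3.02-fold lower in shPRAME. MET, the hepatocyte growth factor receptor, was 2.11-fold higher there, and the cell cycle inhibitor gene CDKN2A 3.48-fold higher. CDKN2A reached the count minimum only through shPRAME. In shBAP1 the antiapoptotic gene BCL2A1 was 2.55-fold lower and the T-box repressor TBX2 2.05-fold lower.

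Of 6 factors that share MITF's binding sites 4 were measured, and none of the 4 was called in either comparison with shEmpty. Among all measured genes 19.3% were called in shPRAME and 14.1% in shBAP1. The median log2 ratio of the 4 in shBAP1 was 0.01 and the mean -0.01. TFE3, a close paralog, was at 44.9 CPM in shEmpty, 49.3 in shBAP1 and 76.2 in shPRAME, a ratio of 1.70 in the last (1.56 to 1.85). MAX had a ratio of 0.744 in shPRAME, and USF1 and USF2 of 1.43 and 0.673 in shBAP1. TFEB and TFEC were below the count minimum and were chosen after their values were seen. TFEB, a paralog that governs lysosome genes, had 15 counts in shEmpty, 28 in shBAP1 and 73 in shPRAME, a ratio of 4.99 in the last (2.84 to 9.36). TFEC had 4 counts in shEmpty, 51 in shBAP1 and none in shPRAME. IRF4, a known partner of MITF in the regulation of TYR and also chosen after its values were seen, had 18, 52 and 1 counts in that order. TFEC and IRF4 were thus most abundant in the library with TYR and TYRP1.

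SOX10, the neural crest factor that activates MITF, was the most abundant of the 10 per length of transcript in every library. It stood at 506 CPM in shEmpty, 367 in shBAP1 and 657 in shPRAME, so that shPRAME was the high library for SOX10 and the low one for MITF. The ratio to shEmpty was 1.30 in shPRAME (1.26 to 1.33) and 0.724 in shBAP1 (0.701 to 0.749), both within the 2-fold limit. The direct ratio of shPRAME to shBAP1 was 1.79 (1.74 to 1.85), also within it. Among 8 measured SOX10 targets of 11, 2 were higher in shPRAME and 4 higher and 1 lower in shBAP1, with medians of 0.51 and 1.04. Of all measured genes 10.2% were higher in shPRAME, and 5.53% higher and 8.56% lower in shBAP1, with medians of -0.06 and -0.03. CDH19, an adhesion gene of the neural crest, was 3.51-fold higher in shPRAME and 2.33-fold higher in shBAP1. In shBAP1 the endothelin receptor EDNRB was 3.30-fold and S100B 2.58-fold higher. The lower gene there was MIA, a secreted melanoma protein (98.3 CPM in shEmpty and 45.1 in shBAP1), named after its value was seen.

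PAX3, the paired-box activator of MITF, was scarce at 15.4 CPM in shEmpty (13.6 to 17.3), 17.4 in shBAP1 (15.3 to 19.6) and 10.8 in shPRAME (9.37 to 12.4). The intervals of shEmpty and shBAP1 overlapped, and the ratio between them was 1.13 (0.952 to 1.34). In shPRAME PAX3 was at 70.5% of shEmpty (58.5% to 84.7%) and was not called. Its single window held none of the motifs searched.

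Of 14 other genes known to act upstream of MITF 12 were measured, and most were not called. In shPRAME 3 were higher and 1 lower, where 19.3% of all measured genes were called, and in shBAP1 2 were higher and 3 lower, where 14.1% were. EDN3, the ligand of EDNRB, had 20 counts in shEmpty, 4 in shBAP1 and 1357 in shPRAME, and was 69.5-fold higher in the last (44.8 to 114) and 3.96-fold lower in shBAP1 (1.33 to 15.9). EDN3 reached the count minimum only through shPRAME, yet it is in both tallies, and its shBAP1 ratio rests on 4 and 20 counts. EDNRB, which is also among the SOX10 targets, was higher in shBAP1 as given above. TCF7 and TCF7L2, nuclear partners of beta-catenin, were 4.99-fold and 2.69-fold higher in shPRAME. ATF4, a stress factor that represses MITF in melanoma, was at 409 CPM in shEmpty, 243 in shBAP1 and 177 in shPRAME, the same order as MITF. LEF1, which acts at the TCF and LEF motif shown above, was 5.52-fold lower in shBAP1 (4.78 to 6.40). KITLG, the ligand of the receptor KIT, was 3.01-fold higher in shBAP1, while KIT itself had no count in any library, a limit of 3 counts in each. The median log2 ratio of this list in shPRAME was -0.03 and its mean 0.63.

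SOX9, a relative of SOX10 linked to dedifferentiated melanoma, was at 107 CPM in shEmpty (103 to 112), 190.0 in shBAP1 (183 to 197) and 129 in shPRAME (124 to 135). shBAP1 was the high library and no interval overlapped another. The ratio to shEmpty was 1.77 in shBAP1 (1.67 to 1.88) and 1.20 in shPRAME (1.13 to 1.28), neither of them called. SOX8, the third member of the SOXE group, was outside the 10 regulators and far more variable. It had 1849 counts in shEmpty, 48 in shBAP1 and 3886 in shPRAME, 30.5-fold lower in shBAP1 (22.9 to 41.5). These 3 genes have similar coding sequences, and the counting tool is not given in the sources used here, so reads could have been split between them.

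SOX2, a pluripotency factor, had 87 counts in shEmpty, 50 in shBAP1 and 12 in shPRAME, or 4.64, 3.37 and 0.656 CPM. Its level in shPRAME was 7.07-fold lower than in shEmpty (3.85 to 14.2), and the intervals of the shPRAME level (0.339 to 1.15 CPM) and the shEmpty level (3.72 to 5.73 CPM) did not overlap. A pseudocount of 1 CPM took its log2 ratio from -2.82 to -1.77. It would be called lower in shPRAME with a count minimum of 10. The ratio of shBAP1 to shEmpty was 0.725 (0.502 to 1.04), an interval that holds no change. The window of SOX2 held the reverse of CATGTG beginning 6 bases before its start. SOX2-OT, the longer transcript that spans SOX2, had 0, 8 and 2 counts in shEmpty, shBAP1 and shPRAME.

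POU3F2 encodes BRN2, a POU factor that is known to mark invasive melanoma cells and to repress MITF. It differed least across the libraries, at 70.8 CPM in shEmpty (67.0 to 74.7), 62.2 in shBAP1 (58.3 to 66.4) and 50.4 in shPRAME (47.2 to 53.8). shEmpty was highest and, with TMM scaling, its interval did not overlap either of the others. That gap to shBAP1 depends on the scaling, as the log2 ratio went from -0.19 to -0.07 with scaling by total count. The ratio to shEmpty was 0.713 in shPRAME and 0.880 in shBAP1, both within the limit. Its window held the reverse of CTTTGAT beginning 88 bases before the start.

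TFAP2A encodes a transcription factor of the activator protein family, which acts with MITF at melanocyte enhancers. It was at 24.0 CPM in shEmpty (21.8 to 26.3), 74.9 in shBAP1 (70.6 to 79.4) and 7.11 in shPRAME (5.94 to 8.44). shBAP1 was high and shPRAME low, with no overlap. TFAP2A was 3.13-fold higher than shEmpty in shBAP1 (2.80 to 3.50) and 3.37-fold lower in shPRAME (2.77 to 4.13). Between the knockdowns it was 10.5-fold lower in shPRAME (8.78 to 12.7). Its paralog TFAP2B was more abundant and behaved otherwise, at 360 CPM in shEmpty, 155 in shBAP1 and 382 in shPRAME. TFAP2B and TFAP2E were lower in shBAP1, by 2.32-fold and 3.42-fold, and no measured paralog was called in shPRAME, where TFAP2C had a ratio of 0.586 and TFAP2E of 1.14. The median log2 ratio of the 3 measured paralogs was 0.09 in shPRAME, with a mean of -0.16, and -1.21 in shBAP1. Neither of the 2 windows of TFAP2A held a motif searched. The level of TFAP2A relative to TFAP2B therefore was 7.26-fold higher in shBAP1 than in shEmpty (6.44 to 8.18) and 3.58-fold lower in shPRAME (2.94 to 4.37). Such a ratio of 2 genes within a library does not depend on library scaling, and its interval is the large-count interval of an odds ratio.

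ZEB1 and ZEB2 encode zinc finger repressors that bind CACCTG and are known for opposite behaviour in melanoma progression. ZEB1 was at 145 CPM in shEmpty (139 to 150.4), 42.2 in shBAP1 (39.0 to 45.7) and 248 in shPRAME (240.4 to 255). ZEB2 was at 63.8 CPM in shEmpty (60.3 to 67.6), 165 in shBAP1 (158 to 172) and 35.4 in shPRAME (32.8 to 38.3). For each gene the 3 intervals did not overlap, and the libraries stood in opposite order. ZEB1 was 3.43-fold lower in shBAP1 than in shEmpty (3.14 to 3.75), a log2 ratio of -1.78 with 3.21% of all measured genes below it. ZEB2 was 2.58-fold higher there (2.41 to 2.77). In shPRAME the ratios of 1.71 for ZEB1 (1.63 to 1.79) and 0.555 for ZEB2 (0.504 to 0.611) stayed within the 2-fold limit. Both would be called with a limit of 1.5-fold. Against each other the knockdowns differed 5.86-fold in ZEB1, higher in shPRAME (5.39 to 6.38), and 4.65-fold in ZEB2, lower in shPRAME (4.27 to 5.08).

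The balance of ZEB1 and ZEB2 within each library followed from these levels. Per kilobase of the longest coding transcript, ZEB1 was 3.47 times ZEB2 in shEmpty, 0.391 times in shBAP1 and 10.7 times in shPRAME. ZEB2 was thus the more abundant of the pair in shBAP1 alone. The ratio was 8.86-fold lower in shBAP1 than in shEmpty (7.93 to 9.90) and 3.08-fold higher in shPRAME (2.77 to 3.42), whatever the scaling or the transcript length. The pairs of genes compared in this way were chosen after their values were seen. MITF relative to SOX10 was 3.53-fold lower in shPRAME than in shEmpty (3.33 to 3.73), while in shBAP1 it was 1.06 times that of shEmpty (1.01 to 1.12). SOX9 relative to SOX10 was 2.44-fold higher in shBAP1 (2.29 to 2.61) and at 0.927 times shEmpty in shPRAME (0.868 to 0.990).

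**Figure D5:**
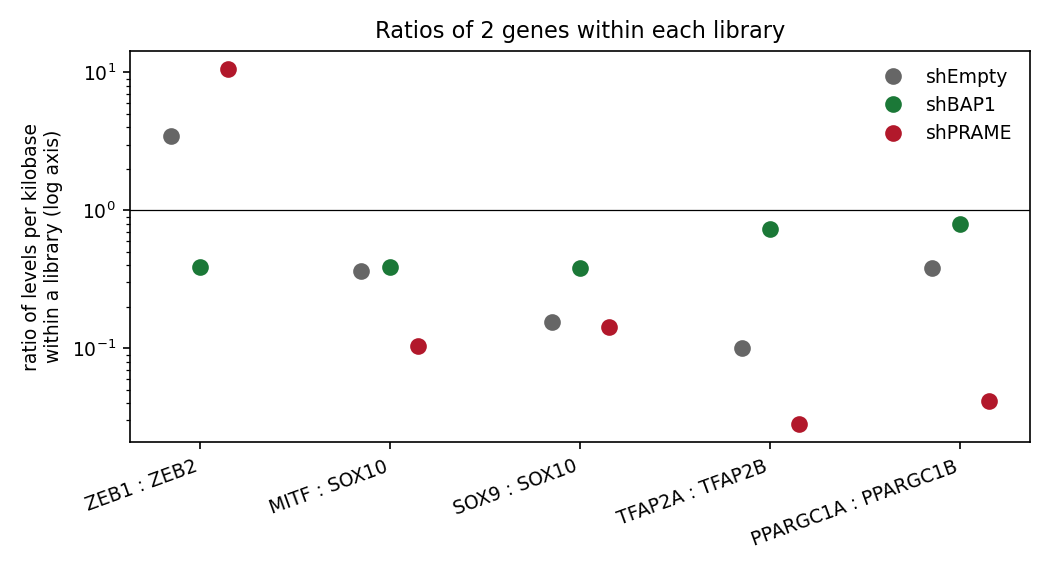
Ratio of the levels of 2 genes within each library, per kilobase of the longest coding transcript (log axis), in shEmpty (grey), shBAP1 (green) and shPRAME (red); each point is 1 library and the line marks equal levels. ZEB1 exceeds ZEB2 in shEmpty and shPRAME but not in shBAP1, and the ratio of MITF to SOX10 is low in shPRAME alone.

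Promoter windows of both ZEB genes are shown because of this opposite order. ZEB1 has 7 starts in the RefSeq table (GRCh38.p14) and the window with the most CACCTG matches is given. Capitals in ZEB1 mark CACCTG or its reverse complement CAGGTG, and in ZEB2 the reverse complement of TCATGTG. They lie at chr10:31318966-31319215 (plus strand) and chr2:144520120-144520369 (minus strand).
ZEB1: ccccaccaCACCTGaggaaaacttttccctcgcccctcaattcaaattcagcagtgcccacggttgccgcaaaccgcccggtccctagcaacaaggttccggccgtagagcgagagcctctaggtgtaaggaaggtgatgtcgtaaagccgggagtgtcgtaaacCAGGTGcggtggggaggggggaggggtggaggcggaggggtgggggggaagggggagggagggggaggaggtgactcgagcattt
ZEB2: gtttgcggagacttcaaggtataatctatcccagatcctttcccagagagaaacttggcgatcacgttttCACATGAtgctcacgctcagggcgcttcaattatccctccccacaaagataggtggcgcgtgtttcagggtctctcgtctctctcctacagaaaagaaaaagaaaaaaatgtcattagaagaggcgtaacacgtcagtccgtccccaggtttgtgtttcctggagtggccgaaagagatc

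CACCTG began 242 bases and its reverse complement 85 bases before this start of ZEB1, and 17.5% of all windows held the motif on either strand. That share is per window, while this window was picked from 7 by its matches. Another ZEB1 window held the reverse of CACCTG, beginning 57 bases before its start. A further ZEB1 window held CATGTG, beginning 40 and 29 bases before its start. The ZEB2 window held no CACCTG, and its TCATGTG match began 180 bases before the start. Whether these motifs bear on the levels was not tested. Antisense transcripts that overlap these starts had few counts. ZEB1-AS1 had 44, 27 and 98 counts in shEmpty, shBAP1 and shPRAME, between 1.62% and 4.31% of the ZEB1 count. ZEB2-AS1 had 3, 16 and 1 counts and TFAP2A-AS1 2, 14 and 2, between 0.154% and 1.54% of their partners. The libraries were made with a directional kit, but whether strand was used in counting is not given in the sources used here.

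Most other measured transcription factors of epithelial-mesenchymal transition were lower in shBAP1 with ZEB1, while ZEB2 was higher there. Of 8 such genes 5 were measured, 4 of them lower and 1 not called, with a median log2 ratio of -1.46. Of all measured genes 8.56% were lower in shBAP1, with a median of -0.03, and 19.3% were called in shPRAME. SNAI2, a Snail-family repressor, was at 124 CPM in shEmpty, 25.5 in shBAP1 and 140.1 in shPRAME, 4.88-fold lower in shBAP1 (4.37 to 5.45). KLF4 was 4.11-fold, SNAI1 2.75-fold and TWIST1 2.47-fold lower there. PRRX1, the most abundant of the 5, was not called, at 550 CPM in shEmpty and 561 in shBAP1. In shPRAME none of the 5 was called (median 0.23), with ratios of 1.46 for PRRX1 and 0.749 for SNAI1. Of the ZEB targets and partners, 5 of 8 genes were measured. ESRP1, an epithelial splicing regulator repressed by ZEB proteins, had 378 counts in shEmpty, 233 in shBAP1 and 32 in shPRAME. It was 11.5-fold lower in shPRAME (8.03 to 17.1) and was the only 1 called in either comparison. In shBAP1, where ZEB1 was lowest, ESRP1 was not called higher. The mesenchymal filament gene VIM had a ratio of 0.666 in shBAP1 and the corepressor gene CTBP2 one of 0.762. E-cadherin (CDH1), the classic target, had 0, 0 and 1 counts and gave no ratio.

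PPARGC1A was at 9.23 CPM in shEmpty (7.91 to 10.7), 21.0 in shBAP1 (18.7 to 23.5) and 0.656 in shPRAME (0.339 to 1.15), on 173, 312 and 12 counts. The 3 intervals did not overlap, with shBAP1 high and shPRAME low. It was 14.1-fold lower in shPRAME than in shEmpty (7.85 to 27.8), the largest ratio among the 9 measured regulators, with 0.301% of all measured genes below it. With a pseudocount of 1 CPM its log2 ratio went from -3.81 to -2.63. In shBAP1 it was 2.28-fold higher than in shEmpty (1.88 to 2.76). Between the knockdowns it was 32.0-fold lower in shPRAME (18.1 to 62.6), and the pseudocount took that log2 ratio from -5.00 to -3.73. The mean count of 166 was the lowest of the measured regulators, so a minimum of 200 would have left it out.

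Of 2 windows for PPARGC1A in the same RefSeq table, the one at the start nearest its 3′ end is shown, chr4:23881102-23881351 on the minus strand, because the gene is a known MITF target. Capitals mark the E-box CATGTG and CAGGTG, the reverse complement of CACCTG.
PPARGC1A: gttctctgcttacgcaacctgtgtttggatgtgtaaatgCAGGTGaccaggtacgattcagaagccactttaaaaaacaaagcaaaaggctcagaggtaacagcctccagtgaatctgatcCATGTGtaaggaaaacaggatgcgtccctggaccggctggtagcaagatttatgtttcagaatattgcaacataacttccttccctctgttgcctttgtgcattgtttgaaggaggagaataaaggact

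CATGTG began 129 bases before this start, while the longer TCATGTG was not in the window. The window of the distant start held another E-box, CACGTG, a motif in 6.34% of all windows.

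Of 14 genes listed as partners or family of PPARGC1A 13 were measured. Of these 1 was higher and 1 lower in shPRAME (median log2 ratio -0.35) and 2 were lower in shBAP1 (median -0.11). These counts are near the shares of all measured genes called, 19.3% and 14.1%. CYCS, which encodes cytochrome c, was 2.34-fold lower in shPRAME. PPARG, a nuclear receptor that PPARGC1A coactivates, was at 14.2 CPM in shEmpty, 4.65 in shBAP1 and 46.1 in shPRAME, 3.25-fold higher than shEmpty in shPRAME and 3.05-fold lower in shBAP1, an order opposite to that of PPARGC1A. The mitochondrial transcription factor gene TFB1M was 3.28-fold lower in shBAP1. The paralog PPARGC1B was at 40.6, 44.4 and 26.6 CPM in shEmpty, shBAP1 and shPRAME. PPARGC1A relative to PPARGC1B was 9.24-fold lower in shPRAME than in shEmpty (5.09 to 16.8) and 2.08-fold higher in shBAP1 (1.68 to 2.57).

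Other regulators of the lineage and the neural crest were mostly lower in shBAP1 where they were called. Of 28 genes 21 were measured, 9 lower and 1 higher in shBAP1 (median log2 ratio -0.81) and 5 higher and 3 lower in shPRAME (median 0.07). Of all measured genes 8.56% were lower and 5.53% higher in shBAP1, and 10.2% higher and 9.08% lower in shPRAME. The higher gene in shBAP1 was FOXD3, a neural crest factor that represses MITF, at 7.15 CPM in shEmpty, 33.0 in shBAP1 and 3.01 in shPRAME, 4.62-fold higher in shBAP1. Its order of libraries was that of TFAP2A, ZEB2 and PPARGC1A. Besides SOX8, the inhibitor of differentiation gene ID3 was 4.25-fold and the homeobox gene ALX1 4.20-fold lower in shBAP1. In shPRAME SOX4 was 3.43-fold and the ETS factor ETV1 3.23-fold higher, while ETS1 was 2.85-fold and FOXD3 2.38-fold lower.

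Genes of the invasive melanoma state with low MITF were split by library. Of 16 genes 15 were measured, 7 higher and 2 lower in shPRAME (median log2 ratio 0.78), and 2 higher and 2 lower in shBAP1 (median -0.16). Of all measured genes 10.2% were higher and 9.08% lower in shPRAME, and 5.53% higher and 8.56% lower in shBAP1. The receptor tyrosine kinase AXL was at 35.0 CPM in shEmpty, 24.2 in shBAP1 and 279.7 in shPRAME, 7.99-fold higher in the library where MITF was lowest. TEAD2, a transcription factor of the Hippo pathway, was 5.72-fold and PLAUR, the urokinase receptor gene, 5.42-fold higher in shPRAME. NGFR, a marker of neural crest-like cells, had 9 counts in shEmpty, 953 in shBAP1 and 34 in shPRAME, 134-fold higher in shBAP1 (70.1 to 293), the library with the highest TYR and TYRP1. NGFR reached the count minimum only through shBAP1. EGFR was 23.2-fold (13.9 to 41.9) and WNT5A 7.55-fold lower in shBAP1, and JUN was 2.25-fold higher.

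Levels of the 10 regulators were ordered within each library by CPM per kilobase of the longest coding transcript in GENCODE release 29. In shEmpty SOX10 led at 176, followed by MITF at 64.4, SOX9 at 27.3, ZEB1 at 23.1 and POU3F2 at 14.5. ZEB2 (6.66) and TFAP2A (6.26) came next with overlapping intervals, then PAX3 at 4.85, and SOX2 (1.85) and PPARGC1A (1.46), whose intervals also overlapped. In shBAP1 SOX10 was at 127, MITF (49.6) and SOX9 (48.3) had overlapping intervals, and TFAP2A (19.6) and ZEB2 (17.2) stood above POU3F2 (12.8) and ZEB1 (6.74). PAX3 (5.48), PPARGC1A (3.33) and SOX2 (1.34) were last there. In shPRAME SOX10 was at 228, ZEB1 was second at 39.5, ahead of SOX9 at 32.8 and MITF at 23.7, and POU3F2 was at 10.3. ZEB2 (3.70) and PAX3 (3.42) had overlapping intervals, followed by TFAP2A (1.86), SOX2 (0.261) and PPARGC1A (0.104), the last pair with overlapping intervals. MITF thus stood next to SOX10 in shEmpty and behind SOX10, ZEB1 and SOX9 in shPRAME. SOX10 led with merged exon lengths and median transcript lengths too, but the order of other genes depended on the length. With merged exons SOX9 stood above ZEB1 in shPRAME and above MITF in shBAP1, and with median transcripts MITF stood above SOX9 in shPRAME.

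For the 5 regulators called in a comparison with shEmpty, the measured genes with the most similar pattern were found. The measure was the distance between pairs of log2 ratios to shEmpty, which rests on 3 libraries, over the 11920 measured genes with a count in each. MITF had 106 genes within 0.25 log2, the nearest being GGCT (0.03), RAN (0.04) and CORO1C (0.05). ZEB1 had 23, led by FGF13, NYAP1 and MYO1D (0.04 to 0.05). ZEB2 had 10, led by IL6R, S100B and ATP10B (0.10 to 0.13). TFAP2A had 3 (LSAMP, NRN1 and FAM198B, 0.17 to 0.20). PPARGC1A had 1 within that limit, SLAMF7 (0.23), followed by MFI2 (0.27) and FHOD3 (0.28). These numbers depend on how far a gene lies from no change and on its counts, and the interval of PPARGC1A in shPRAME was wider than the limit used, so they do not rank the patterns by how common they are.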

How the data were processed

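RNA was extracted with TRIzol and messenger RNA libraries were made with a directional kit and sequenced as paired reads of 100 bases, per the labels' protocols. The values are whole-number read counts per gene as deposited by the authors, 1 column per library. FastQC, TopHat, Cufflinks and edgeR with hg19 (GRCh37) are named, per the submitters' processing notes, and the sources used here do not give the counting tool, annotation or strand setting. Every row names a gene, and 4896 genes had no count in any library.

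Counts were scaled with TMM factors over the 3 libraries (edgeR 4.0.16, R 4.3.3). Ratios had no pseudocount, except that a count of 0 was put at a floor of 3 counts. Exact 95% intervals came from the conditional binomial distribution for ratios and the Poisson distribution for levels. No test of the conditions was possible with 1 library per group. The call rule was tried on simulated counts that carried counting error only. Differences between cultures were not simulated, so that trial cannot show how reliable the calls are. Lengths and chromosomes came from GENCODE release 29 (GRCh38), matched by symbol. That build differs from hg19, so it gave lengths only, and promoter windows are in GRCh38.p14. Lengths were chosen after the data were seen. Python 3.11.15, numpy 2.4.6, scipy 1.17.1, pandas 2.3.3 and matplotlib 3.10.9 were used.

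All 10 regulators were named. From each gene list up to 4 called genes with the largest ratios were named per comparison with shEmpty, or 2 where none was called, and for each called regulator the 3 genes nearest in pattern. Some genes that this rule names are not reported here. The regulators and lists were chosen with earlier results of these data known. Several lists share genes (TBX2, TFAP2B, TFAP2C, MC1R and EDNRB). Other scalings (by total count, by upper quartile, by size factors of DESeq2 1.42.0), lower and higher minima (none, 10, 200), limits of 1.5-fold and 3-fold, a pseudocount of 1 CPM, other transcript lengths and list means were tried.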

Additional observations from a re-analysis of the deposited data

How the results depend on the processing

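No paired analysis was possible because each group had 1 library. None of the 90 ratios of the 10 regulators recomputed under 3 other scalings changed sign, as each shift was smaller than these log2 ratios. Count minima, fold limits and a pseudocount cannot change a sign. Of 270 ratios under all alternatives, 12 that were not called moved outside their counting intervals. Among these were MITF, SOX10 and SOX9 in shBAP1 against shEmpty with scaling by total count. Ratios called in either setting were compared by their call alone, so the 12 do not cover them. MITF in shPRAME against shEmpty, for example, also left its interval with upper-quartile scaling, at a log2 ratio of -1.35. Count minima and fold limits leave a ratio as it is, so those settings could move none. Without a count minimum the calls over all genes were 2301 higher in shPRAME against shEmpty, 1530 higher in shBAP1 against shEmpty, and 2670 higher and 2057 lower in shPRAME against shBAP1. With a minimum of 10 they were 1903 and 1169 higher in the comparisons of shPRAME and shBAP1 with shEmpty, and with 200 they were 700 and 320, beside 1225 and 661 at the minimum of 50. A limit of 1.5-fold gave 2321 higher and 2582 lower in shPRAME against shEmpty, 1522 and 2123 in shBAP1 against shEmpty, and 2844 and 2905 in shPRAME against shBAP1. A limit of 3-fold gave 592 and 399, 308 and 470, and 920 and 441 in the same order. The regulators called in shPRAME against shEmpty became 5 at 1.5-fold, where ZEB1 and ZEB2 joined. Those in shBAP1 against shEmpty became 2 at 3-fold, where ZEB2 and PPARGC1A dropped out. MITF in shPRAME was not called at 3-fold, and SOX2 was called lower in shPRAME with a minimum of 10 or none. Of 33 list medians 4 had another sign as a mean. Precision was limited by depth for SOX2 and PPARGC1A, each on 12 counts in shPRAME, and single libraries leave differences between cultures unmeasured.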

Other observations

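Set directly against each other, the knockdowns differed in the transcription factors of epithelial-mesenchymal transition, where 4 of 5 measured genes were higher in shPRAME than in shBAP1 and none was lower (median log2 ratio 1.58, against -0.06 for all measured genes). Among other lineage and neural crest regulators 11 of 21 were higher and 4 lower (median 1.04), and among the pigment targets of MITF none of 15 was higher and 7 were lower (median -0.90). Of those 7, TYR and TYRP1 reached the count minimum only through shBAP1. SOX10 targets were divided, with 2 of 8 higher and 2 lower (median 0.20). Of all measured genes 14.2% were higher and 10.9% lower in this comparison, 25.1% in either direction. Its ratios follow from those of the comparisons with shEmpty, so these counts are no separate evidence. The partners and family of PPARGC1A had a median of -0.23 and a mean of 0.06.

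Some genes below the count minimum also differed between libraries, and they were chosen after their values were seen. SOX11, a neural SOX factor, had 5 counts in shEmpty, 8 in shBAP1 and 90 in shPRAME. FOXC2, a factor of epithelial-mesenchymal transition, had 48 and 58 counts in shEmpty and shPRAME and none in shBAP1, the library where ZEB1 was lowest.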
